A study of Mus musculus with 10 samples.

Results

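Cholesterol and fatty acids are made from acetyl-CoA by enzymes many of whose genes are driven together by the SREBP transcription factors. The genes described here are 34 members of that system, chosen by symbol from a table of 24202 gene symbols. The choice was made around the rise of Insig1 and Dbi in PIIO-1 tumors, so the comparison of PIIO-1 with PBS is a description for all 34 genes and no list is tested. All 34 were in the table and had a mean of at least 10 normalized counts. The list does not hold every gene of the pathway.

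The tumors were grown from MB-49, a mouse bladder cancer cell line, of which 100000 cells were injected subcutaneously into the right flank. Every host, PBS-treated ones included, was an hLrrc32 knock-in mouse. Lrrc32 encodes GARP, a surface protein that carries latent TGF-beta. One group of 5 tumors received PIIO-1, a GARP antibody called a4D3 in the titles, as 2 intraperitoneal doses of 200 ug per animal, the first on day 6 and the second on day 9. The other 5 received PBS. Tumors were taken on day 10, dispersed to single cells and sequenced in bulk. The labels give the tissue as whole tumor, so fewer cells of a type and less RNA per cell cannot be told apart. Keratins 8 and 18, which epithelial lines express, were abundant (Krt8 50275 to 65634 normalized counts over the 10 tumors). The urothelial uroplakin genes were far lower, Upk1a at 18.6 to 41.3, Upk1b at 1.96 to 21.2, and Upk2 and Upk3a at up to 5.85 and 3.27.

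In cells short of sterol, Scap escorts SREBP proteins from the endoplasmic reticulum to the Golgi, where they are cut and freed to enter the nucleus. Insig proteins hold Scap back when sterol is plentiful. SREBP-2 (Srebf2) acts mainly on genes of cholesterol synthesis and SREBP-1 (Srebf1) mainly on genes of fatty acid synthesis. Insig1 is itself a target of SREBP, and Dbi encodes the acyl-CoA binding protein that carries fatty acyl-CoA in the cytosol.

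The libraries held between 18843192 and 37581521 whole reads in genes. The lowest total was that of PBS tumor 4, and every other library held at least 29689555. Values are normalized read counts, means are given ± SD with n = 5 tumors per group, and differences are PIIO-1 minus PBS on the log2(normalized count + 1) scale with the standard error (SE) from limma. Over all 16767 genes tested, limma and edgeR called 0 genes at an adjusted p under 0.05 and DESeq2 called 3, none of them a gene described here. At an unadjusted p under 0.05 they counted 944, 975 and 1012 genes. PIIO-1 tumor 5 and PBS tumor 4 stood farthest out on the first and the second principal component. With 1 tumor left out at a time, the median difference of all 34 genes lay between 0.15 (leaving out PIIO-1 tumor 1) and 0.21 (leaving out PIIO-1 tumor 4), and a value that 1 tumor moved by more than 1.5 times is given beside the gene or list it belongs to.

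Per length, these genes spanned a wide range of levels. The plot of levels per length shows Scd2, a stearoyl-CoA desaturase, highest at 79.5 ± 6.54 RPKM (reads divided by exon length and by the library's reads in genes; SD, n = 5) in PBS tumors. Dbi followed at 55.0 ± 2.73, ATP citrate lyase (Acly), which makes cytosolic acetyl-CoA, at 44.1 ± 4.24, and Srebf2 at 39.0 ± 2.30. Among the sterol genes, Insig1 (21.0 ± 2.94), the HMG-CoA synthase gene Hmgcs1 (21.0 ± 3.02), the squalene epoxidase gene Sqle (20.9 ± 2.33) and Cyp51 (19.1 ± 2.46) lay within 1 SD of each other. The lowest levels per length belonged to Fads2 (0.185 ± 0.0362), Fdps (0.591 ± 0.169) and Fads1 (1.04 ± 0.217). Fads1 and Fads2 encode the desaturases that make polyunsaturated fatty acids. Fdps, which makes farnesyl diphosphate, shares 1124 exon bases on its own strand with the annotated gene Gm43738, and reads there cannot be assigned to either.

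**Figure D1:**
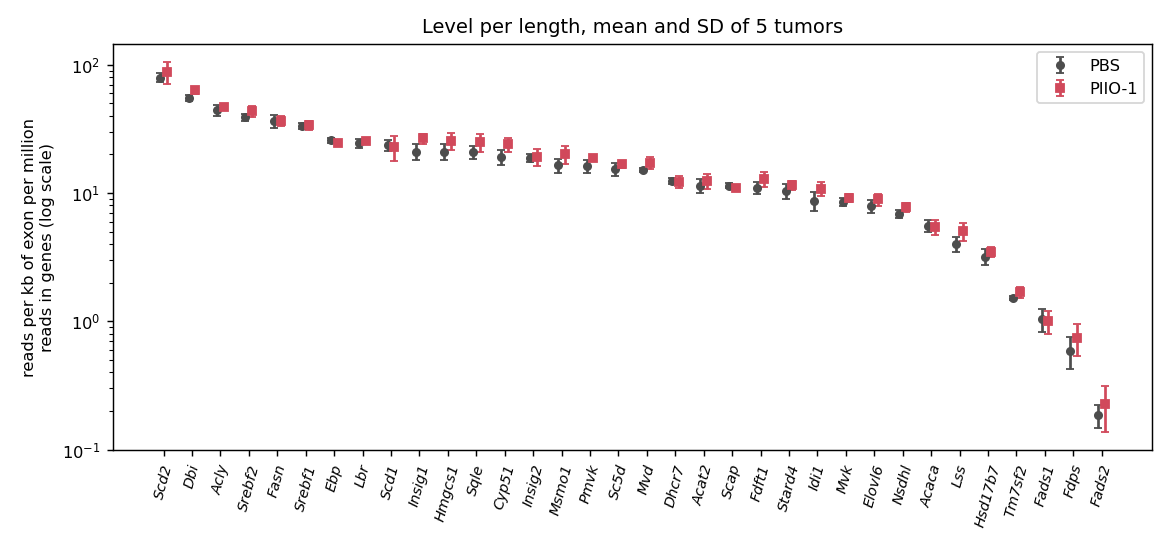
Level per length of the 34 genes, ordered by their PBS mean; the vertical axis is RPKM on a log scale, and points with bars are means ± SD of 5 PBS (grey circles) and 5 PIIO-1 tumors (red squares). Scd2 stands highest at 79.5 in PBS tumors and Fads2 lowest at 0.185.

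Insig1 and Dbi, whose rise defined the list, were the only 2 of the 34 genes whose groups did not overlap. Insig1 (chromosome 5, 28071363 to 28078662, plus strand, GRCm38) stood at 1734, 2148, 1850.4, 2289 and 1806 normalized counts in PBS tumors 1 to 5 and 2630.1, 2368, 2889, 2293 and 2624 in PIIO-1 tumors 1 to 5. Its lowest PIIO-1 value, in tumor 4, lay just above its highest PBS value, also in tumor 4. The means were 1965 ± 239.9 with PBS against 2561 ± 237 with PIIO-1, a difference of 0.39 (SE 0.088), or 30.6% higher. Dbi (chromosome 1, 120113280 to 120121078, minus strand) stood at 2502, 2367, 2412, 2367 and 2209 normalized counts in PBS tumors 1 to 5 and 2689, 2847, 2908, 2524 and 2959 in PIIO-1 tumors 1 to 5. Again PIIO-1 tumor 4 was the lowest of its group, close to PBS tumor 1, the highest of the other. The Dbi means were 2371 ± 106 with PBS against 2786 ± 178 with PIIO-1, a difference of 0.23 (SE 0.054), or 17.4% higher. Across all genes tested, the groups did not overlap with PIIO-1 above for 0.394% and with PIIO-1 below for 0.459%.

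**Figure D2:**
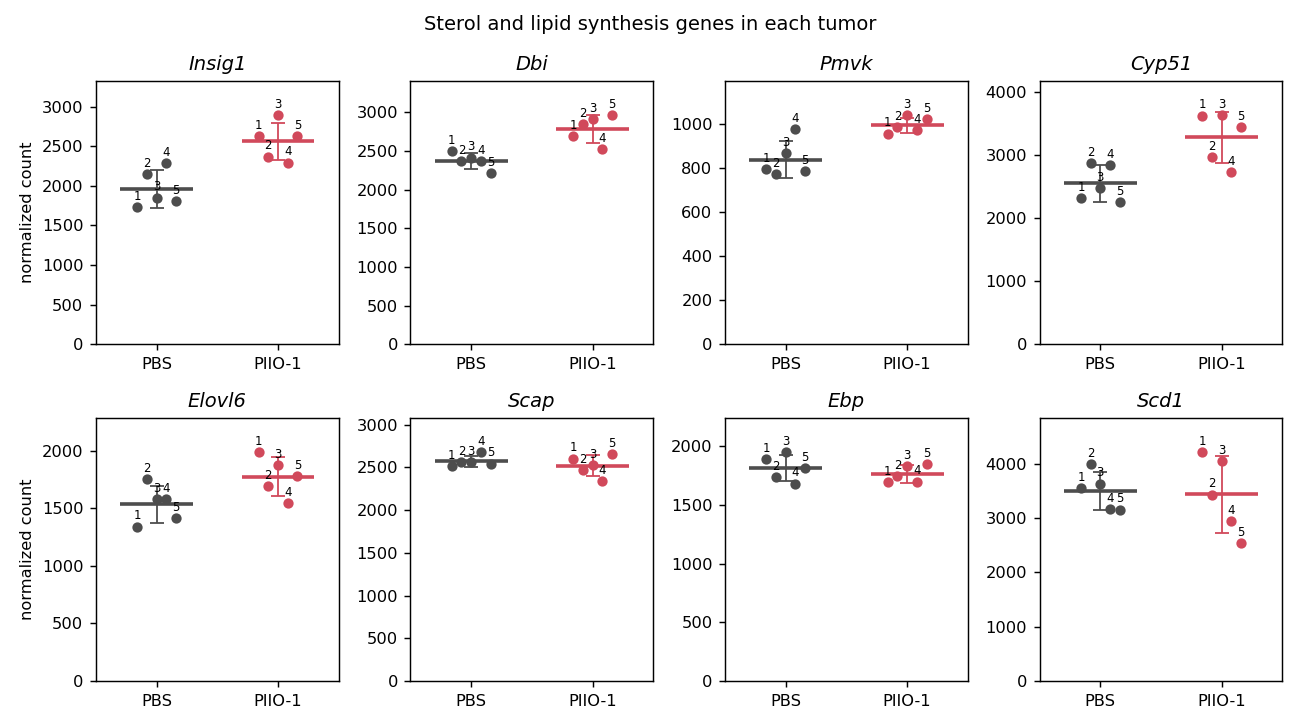
Normalized counts of 8 genes in each tumor on axes that start at 0; numbers beside points are tumor numbers, horizontal lines are group means and bars are ± SD of 5 tumors. Insig1 and Dbi show no overlap between the groups, while Scap, Ebp and Scd1 show overlapping groups.

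SREBP acts through promoter sequence, together with the CCAAT-binding factor NF-Y. Shown here are therefore the promoters of Insig1 and of the 4 listed enzyme genes that varied most closely with it. Each is the 250 bases before the RefSeq start of the gene (GRCm38.p6), with matches in capitals to the sterol regulatory element core TCACNCCAC, the E-box CACGTG and the CCAAT box, on either strand. Matches of the CCAAT box can overlap each other, as they do in Fasn.
Insig1 (chr5:28071162-28071411, plus strand): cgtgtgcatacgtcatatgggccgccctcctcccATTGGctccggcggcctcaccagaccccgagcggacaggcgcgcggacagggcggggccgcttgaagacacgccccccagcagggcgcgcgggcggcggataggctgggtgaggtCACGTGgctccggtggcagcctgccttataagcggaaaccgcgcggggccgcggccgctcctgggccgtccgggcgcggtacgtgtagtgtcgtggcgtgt
Cyp51 (chr5:4104698-4104947, minus strand): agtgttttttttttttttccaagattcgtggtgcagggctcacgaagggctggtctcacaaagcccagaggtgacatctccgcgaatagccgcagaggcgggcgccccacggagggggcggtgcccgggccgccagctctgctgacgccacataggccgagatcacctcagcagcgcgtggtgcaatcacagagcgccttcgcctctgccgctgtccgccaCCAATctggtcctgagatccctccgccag
Lss (chr10:76531355-76531604, plus strand): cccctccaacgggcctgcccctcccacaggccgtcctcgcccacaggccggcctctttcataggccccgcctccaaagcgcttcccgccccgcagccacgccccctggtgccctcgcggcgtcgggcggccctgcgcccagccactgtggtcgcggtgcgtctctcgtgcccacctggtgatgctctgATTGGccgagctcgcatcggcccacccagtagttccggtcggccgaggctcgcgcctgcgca
Hmgcs1 (chr13:119690101-119690350, plus strand): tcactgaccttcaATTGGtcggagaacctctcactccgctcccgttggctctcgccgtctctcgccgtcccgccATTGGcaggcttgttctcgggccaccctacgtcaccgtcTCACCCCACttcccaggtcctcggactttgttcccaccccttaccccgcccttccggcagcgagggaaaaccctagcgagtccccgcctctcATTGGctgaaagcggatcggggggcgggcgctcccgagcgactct
Idi1 (chr13:8885356-8885605, plus strand): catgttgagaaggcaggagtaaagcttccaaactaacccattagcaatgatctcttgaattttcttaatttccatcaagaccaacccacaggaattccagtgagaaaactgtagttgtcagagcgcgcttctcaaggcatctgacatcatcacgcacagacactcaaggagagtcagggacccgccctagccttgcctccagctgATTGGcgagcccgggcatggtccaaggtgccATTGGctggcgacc

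The Insig1 window held 1 E-box and 1 CCAAT box, the first bases of which lie at -101 and -216 from the start. The Hmgcs1 window held the sterol regulatory element core at -137 and 3 CCAAT boxes. Windows of Cyp51, Lss and Idi1 held 1, 1 and 2 CCAAT boxes and neither of the other motifs. Of the 27 members with a promoter in the table, 21 held a CCAAT box in any of their windows (77.8%), 5 an E-box (18.5%) and 1, Hmgcs1, the sterol regulatory element core (3.70%). Among the 11349 tested genes with a promoter these shares were 40.1%, 9.41% and 1.29%, and among all 32851 promoters 33.8%, 6.02% and 1.05%. Both Dbi promoters were searched, and 1 held a CCAAT box. A match describes the letters only, and a window without one says nothing of the factor. Promoters were matched for all members except Fads1, Fdft1, Fdps, Scd1, Scd2, Sqle and Stard4.

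The median of the 5 sterol sensing genes was 0.051, and between 0.017 (leaving out PIIO-1 tumor 3) and 0.10 (leaving out PIIO-1 tumor 5). The 4 genes other than Insig1 had differences between -0.032 and 0.19. Srebf2, the sterol branch factor, ranged over 7770.0 to 8924 normalized counts with PBS and 8711 to 10497 with PIIO-1, with means of 8490.4 ± 462 with PBS against 9688 ± 854 with PIIO-1 and a difference of 0.19 (SE 0.065). PIIO-1 tumors 1, 3 and 5 were above all PBS tumors for Srebf2, and tumors 2 and 4 lay among them. Srebf1, the fatty acid branch factor, differed by 0.051 (SE 0.056), and its 95% interval ran from -0.072 to 0.17. The difference of Srebf1 moved between 0.017 (leaving out PIIO-1 tumor 3) and 0.085 (leaving out PIIO-1 tumor 4). Insig2, the second Insig gene, which is less responsive to SREBP, differed by 0.051 (SE 0.096), with an interval of -0.16 to 0.26. The difference of Insig2 turned negative when PIIO-1 tumor 3 was left out (-0.018) and when PBS tumor 4 was (-0.0039). Scap, the escort, stood at 2516, 2563, 2564, 2681 and 2546 normalized counts in PBS tumors 1 to 5 and 2603, 2471, 2529, 2339 and 2655 in PIIO-1 tumors 1 to 5. PIIO-1 tumors 2 and 4 were below every PBS tumor and the other 3 lay inside the PBS range. Scap was the most even of the 5 sensing genes, with a coefficient of variation of 2.44% in PBS and 4.88% in PIIO-1 tumors. The difference of Scap was -0.032 (SE 0.044), and between -0.051 (leaving out PIIO-1 tumor 5) and -0.0054 (leaving out PIIO-1 tumor 4).

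All 7 genes of the mevalonate steps, which lead from acetyl-CoA to farnesyl diphosphate, had positive differences, with a median of 0.25. Pmvk, the phosphomevalonate kinase, stood at 796, 772, 867, 977 and 786 normalized counts in PBS tumors 1 to 5 and 958, 986, 1040.4, 973 and 1022 in PIIO-1 tumors 1 to 5. PBS tumor 4 was the only PBS tumor to reach the PIIO-1 range, and Pmvk differed by 0.25 (SE 0.068). Idi1, the isopentenyl diphosphate isomerase, stood at 765, 1129, 928, 997 and 819.9 normalized counts in PBS tumors 1 to 5 and 1309, 1099, 1295, 989 and 1207 in PIIO-1 tumors 1 to 5, a difference of 0.35 (SE 0.11). Hmgcs1, which makes HMG-CoA, stood at 2658, 3507, 2769.8, 3109.9 and 2554 normalized counts in PBS tumors 1 to 5 and 4093, 3146, 4226, 3109.6 and 3544 in PIIO-1 tumors 1 to 5, a difference of 0.31 (SE 0.11). For both genes PIIO-1 tumors 1, 3 and 5 were above every PBS tumor and tumors 2 and 4 were not. Mvd, the mevalonate diphosphate decarboxylase, followed another order, with PIIO-1 tumors 3, 4 and 5 highest (1031, 1119.8 and 1085) and PIIO-1 tumor 1 at 826. Its difference was 0.21 (SE 0.084). Mevalonate kinase (Mvk), over 624 to 748 normalized counts with PBS and 728 to 829 with PIIO-1, differed by 0.13 (SE 0.066). The cytosolic thiolase Acat2, which joins acetyl-CoA units at the head of the path, ranged over 751 to 968 normalized counts with PBS and 847 to 1119.8 with PIIO-1 and differed by 0.16 (SE 0.10), or by 0.11 without PBS tumor 5. Fdps had only 48.2 to 134 normalized counts and a difference of 0.36 (SE 0.23), whose interval ran from -0.15 to 0.87. The difference of Fdps was 0.22 with PBS tumor 5 left out.

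Of the 12 genes between farnesyl diphosphate and cholesterol, 11 had positive differences and the median was 0.19. Cyp51, the lanosterol demethylase at chromosome 5, 4081145 to 4104746, minus strand, stood at 2314, 2873, 2479.9, 2842 and 2252 normalized counts in PBS tumors 1 to 5 and 3627, 2973, 3631, 2733 and 3444 in PIIO-1 tumors 1 to 5. PIIO-1 tumors 1, 2, 3 and 5 were above every PBS tumor, and tumor 4 was below PBS tumors 2 and 4. The means were 2552 ± 291 with PBS against 3282 ± 407 with PIIO-1, a difference of 0.36 (SE 0.097). Lss, which folds squalene epoxide into lanosterol, stood at 1146, 1518, 1309, 1406 and 1165 normalized counts in PBS tumors 1 to 5 and 1874, 1396, 1967, 1371 and 1805 in PIIO-1 tumors 1 to 5, a difference of 0.35 (SE 0.12). As for Idi1 and Hmgcs1, PBS tumors 2 and 4 were the PBS tumors that reached the PIIO-1 range of Lss. Msmo1, a sterol methyl oxidase, ranged over 2721 to 3638 normalized counts with PBS and 3097 to 4433 with PIIO-1 and differed by 0.32 (SE 0.12). Sqle ranged over 3189 to 4122 normalized counts with PBS and 3411 to 4851 with PIIO-1 and differed by 0.28 (SE 0.11). Fdft1, the squalene synthase, ranged over 1298 to 1660.0 normalized counts with PBS and 1462 to 1989 with PIIO-1, with PBS tumor 2 far above the other PBS tumors. It differed by 0.27 (SE 0.095), but it shares 774 exon bases with Ctsb on the opposite strand, and the sources used here do not give the strand setting of the counting. PIIO-1 tumors 1, 3 and 5 were above every PBS tumor for these 4 genes. Exon bases shared with other counted genes on the opposite strand were also annotated for Hmgcs1 (557), Lss (381) and Cyp51 (166). The same holds for Scap (985), Lbr (440), Srebf1 (109) and Elovl6 (34).

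The other genes of the branch had differences of at most 0.20. Nsdhl, a sterol dehydrogenase, ranged over 563 to 669 normalized counts with PBS and 619 to 761 with PIIO-1 and differed by 0.20 (SE 0.070). Sc5d, the lathosterol oxidase, ranged over 2026 to 2548 normalized counts with PBS and 2372 to 2729 with PIIO-1 and differed by 0.16 (SE 0.066). Only PBS tumor 2 for Nsdhl and PBS tumor 4 for Sc5d reached the PIIO-1 range. Hsd17b7, the keto-reductase, ranged over 435 to 599.8 normalized counts with PBS and 488 to 615 with PIIO-1 and differed by 0.16 (SE 0.097). Tm7sf2 and Lbr encode sterol reductases that act on the same bond, Lbr being also a receptor of the nuclear lamina. Tm7sf2 ranged over 189 to 212 normalized counts with PBS and 204 to 249 with PIIO-1 and differed by 0.17 (SE 0.084), and Lbr over 3326 to 3797 normalized counts with PBS and 3569 to 3883 with PIIO-1, differing by 0.079 (SE 0.049). Reads of Tm7sf2 can be mixed with those of Vps51, which shares 532 exon bases. Dhcr7, which makes cholesterol from its last precursor, had means of 2185 ± 118 with PBS against 2215 ± 196 with PIIO-1 and a difference of 0.016 (SE 0.065). The Dhcr7 interval of -0.13 to 0.16 leaves room for a difference as large as that of Lbr, and leaving out single tumors put the difference of Dhcr7 between -0.018 (leaving out PIIO-1 tumor 1) and 0.064 (leaving out PIIO-1 tumor 4). Ebp, the sterol isomerase, was the 1 gene of the branch with a negative difference. It stood at 1890.4, 1736, 1949, 1681 and 1813 normalized counts in PBS tumors 1 to 5 and 1691, 1746, 1831, 1697 and 1849.5 in PIIO-1 tumors 1 to 5, so that all PIIO-1 tumors lay inside the PBS range, with a difference of -0.040 (SE 0.052), or between -0.067 (leaving out PBS tumor 4) and -0.014 (leaving out PBS tumor 3). Stard4, a carrier that moves cholesterol between membranes, ranged over 1528 to 2017 normalized counts with PBS and 1835 to 2157 with PIIO-1 and differed by 0.19 (SE 0.081).

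Fatty acid synthesis genes had a median difference of 0.082, with 5 of 8 positive. That median was between 0.046 (leaving out PBS tumor 1) and 0.11 (leaving out PBS tumor 4), and 0.036 with a minimum mean of 50, which drops Fads2. Elovl6, which lengthens palmitate, stood at 1341, 1758, 1584, 1584 and 1416 normalized counts in PBS tumors 1 to 5 and 1990.5, 1692, 1878, 1547 and 1779.6 in PIIO-1 tumors 1 to 5. PIIO-1 tumors 1, 3 and 5 lay above all PBS tumors and tumors 2 and 4 did not, and the difference was 0.21 (SE 0.084). Fasn, the fatty acid synthase, had means of 12091 ± 1252 with PBS against 12375 ± 939.6 with PIIO-1 and a difference of 0.036 (SE 0.077), with an interval of -0.13 to 0.21. Leaving out single tumors put the difference of Fasn between -0.00073 (leaving out PBS tumor 1) and 0.081 (leaving out PIIO-1 tumor 4). Acaca, the acetyl-CoA carboxylase that commits carbon to this branch, differed by -0.012 (SE 0.080), with an interval of -0.19 to 0.16, and between -0.062 (leaving out PIIO-1 tumor 1) and 0.028 (leaving out PIIO-1 tumor 5). No PIIO-1 tumor exceeded the highest PBS tumor for Fasn, and 1 did for Acaca. Acly ranged over 6369.6 to 7710.1 normalized counts with PBS and 7314 to 7871 with PIIO-1 and differed by 0.13 (SE 0.059), with PIIO-1 tumors 1, 2 and 4 above every PBS tumor.

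Scd1 and Scd2 encode desaturases of closely related sequence, whose reads may be shared. Scd1 stood at 3561, 4004, 3640.3, 3168 and 3159.9 normalized counts in PBS tumors 1 to 5 and 4221, 3438, 4050.1, 2947 and 2543 in PIIO-1 tumors 1 to 5. PIIO-1 tumor 1 held the highest value of all 10 tumors and PIIO-1 tumor 5 the lowest, so that the difference was -0.048 (SE 0.13), and 0.055 without PIIO-1 tumor 5. Scd2 ran from 12051 to 18060.3 in PIIO-1 and from 12244 to 14812 in PBS tumors, a difference of 0.15 (SE 0.11), and 0.070 without PIIO-1 tumor 1. Coefficients of variation were 20.7% for Scd1 and 17.8% for Scd2 in PIIO-1 tumors, against 10.1% and 7.86% in PBS tumors. Whether the spreads differ was not tested. Fads1 and Fads2 were low, at 106 to 196 and 11.1 to 37.2 normalized counts, and differed by -0.014 (SE 0.17) and 0.24 (SE 0.29). The difference of Fads1 was between -0.13 (leaving out PBS tumor 2) and 0.086 (leaving out PBS tumor 5). Without PIIO-1 tumor 5, which held the highest Fads2 value, the Fads2 difference was 0.049, and without PIIO-1 tumor 3 it was 0.47.

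**Figure D3:**
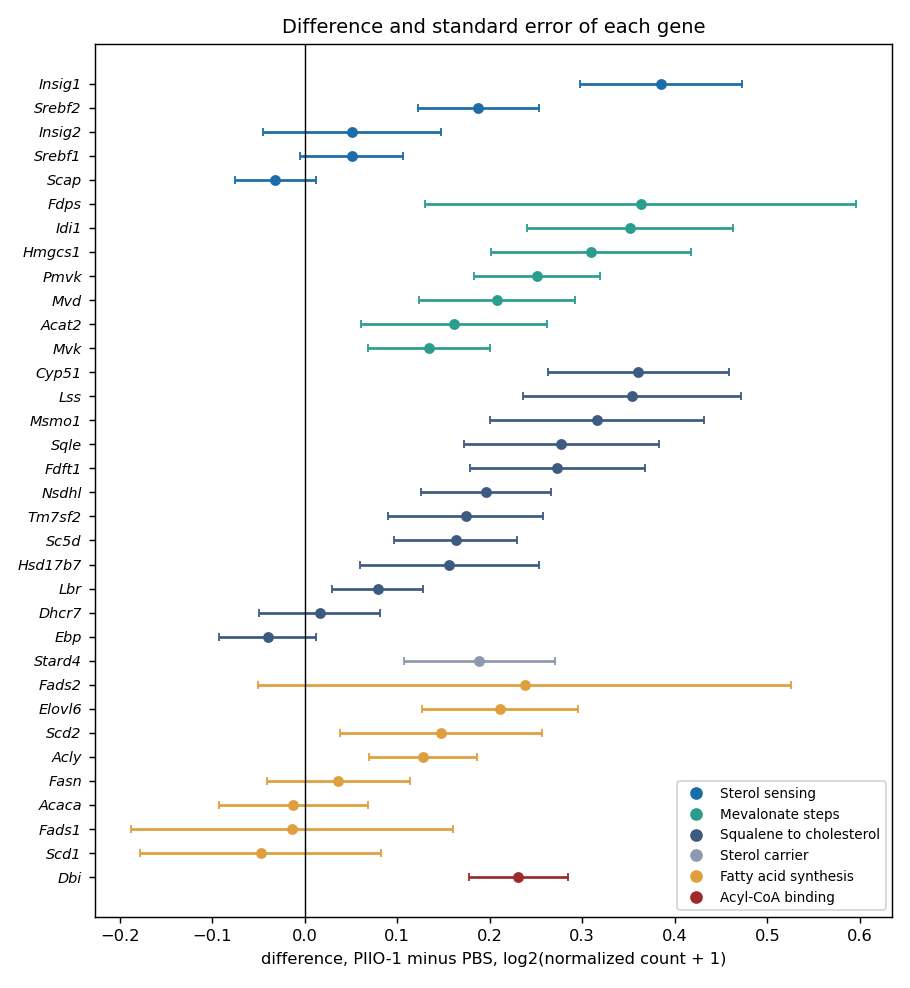
Difference of each of the 34 genes, PIIO-1 minus PBS on the log2(normalized count + 1) scale, with its standard error from limma, coloured by role. Mevalonate genes lie between 0.13 and 0.36, while fatty acid synthesis genes lie between -0.048 and 0.24.

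In all, 29 of the 34 genes had a positive difference, against 51.1% of all genes tested, and the median was 0.18 against 0.00274. Leaving out Insig1 and Dbi, 27 of 32 were positive with a median of 0.17. None passed over all genes by limma, edgeR or DESeq2 (called in 0%, 0% and 0.0179% of genes). The smallest limma adjusted p was 0.837. At an unadjusted p under 0.05 by limma, 16 of the 34 were higher and 0 lower, where 2.86% of all genes were higher and 2.77% lower. Because the list was built on this contrast, these counts stand as descriptions only. The 2 groups overlapped for 32 of the genes. When PIIO-1 tumor 5 and PBS tumor 4 were both left out, a setting chosen after seeing the data, 32 of 34 were positive, with a median of 0.18.

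The map of all genes by tumor shows which tumors carried the higher sterol values. For each of the 19 enzyme genes between acetyl-CoA and cholesterol, the 10 tumors were ranked from highest to lowest. PIIO-1 tumor 3 was among the 3 highest for 15 of the 19, PIIO-1 tumor 1 for 15 and PIIO-1 tumor 5 for 14. By contrast PIIO-1 tumors 2 and 4 were among the 3 highest for 2 genes each, and their median rank was 6 for both. PBS tumor 2, with a median rank of 4, stood highest among PBS tumors. PBS tumors 1 and 5 were lowest, both with a median rank of 9. Of the 8 fatty acid genes, PIIO-1 tumor 1 was in the top 3 for 6 genes, PBS tumor 2 for 4, and the lowest value was in PBS tumor 1 for 3 and in PIIO-1 tumor 5 for 3.

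**Figure D4:**
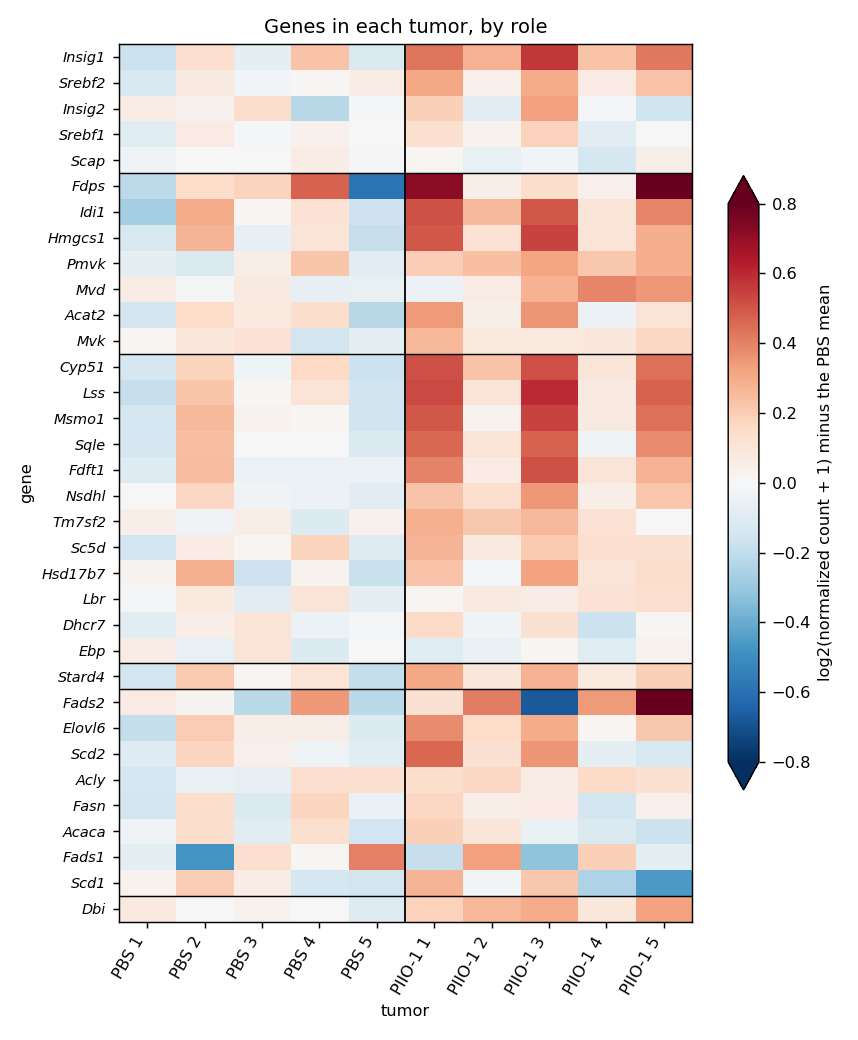
Heat map of the 34 genes (rows, grouped by role) in the 10 tumors (columns); colour is log2(normalized count + 1) minus the gene's PBS mean, red higher and blue lower, with arrows marking values beyond 0.8. PIIO-1 tumors 1, 3 and 5 are red in most sterol rows, PIIO-1 tumors 2 and 4 are paler, and the fatty acid rows are mixed.

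Variation inside the groups does not use the contrast that chose the list. Each tumor's log2 value was expressed as its deviation from its own group's mean, and the deviations of Insig1 and of Dbi were compared with those of every other member over the 10 tumors, 65 pairs in all, with Benjamini-Hochberg adjustment over the 65. Cyp51 deviated with Insig1 (r = 0.92, rho = 0.93, exact permutation p = 0.00104 for r and 0.00132 for rho, adjusted p = 0.0429 and 0.0458), and so did Lss (r = 0.87, rho = 0.82, exact permutation p = 0.00132 for r and 0.00264 for rho, adjusted p = 0.0429 and 0.0458). Without the 2 tumors farthest from the Insig1 median, PBS tumors 1 and 5, r was 0.90 for Cyp51 and 0.83 for Lss. The next 3 were Hmgcs1 (r = 0.87, rho = 0.83, exact permutation p = 0.00444 for r and 0.00493 for rho, adjusted p = 0.0707 and 0.0458), Idi1 (r = 0.87, rho = 0.89, exact permutation p = 0.00535 for r and 0.00292 for rho, adjusted p = 0.0707 and 0.0458) and Srebf1 (r = 0.77, rho = 0.79, exact permutation p = 0.00708 for r and 0.00472 for rho, adjusted p = 0.0707 and 0.0458). Without the same 2 tumors their r was 0.83, 0.78 and 0.76. These 3 passed on ranks and not on r. In each group taken alone r with Insig1 was 0.94 in PBS and 0.93 in PIIO-1 tumors for Cyp51, and 0.87 and 0.96 for Lss.

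Over all 33 pairs with Insig1, 2 passed on r and 8 on rho, all of them positive. Of the 33 values of r, 27 were positive. Of the 33, 8 had an r of at least 0.8, or 24.2%, against 0.966% of the other genes tested. Stard4 (r = 0.85), Fasn (0.84), Acat2 (0.83) and Sc5d (0.83) were among these 8. Most of the genes closest to Insig1 were not on the list. Of the 20 genes with the highest r among all tested, 1 was a member, and of the top 100, 8 were. Values for Insig2 (0.032), Acly (0.16), Mvk (-0.13) and Mvd (-0.18) were close to 0, Tm7sf2 was at -0.25, Ebp at -0.35 and Fads1 at -0.66. Some of these values join opposite signs in PBS and PIIO-1 tumors. In that order r was -0.70 and 0.67 for Insig2, 0.45 and -0.88 for Acly, -0.96 and 0.28 for Tm7sf2, and -0.86 and 0.62 for Ebp. For 22 of the 33, r was positive in both groups. The calls on r changed with single tumors: with any 1 left out, between 0 and 11 pairs passed, while r stayed between 0.91 and 0.95 for Cyp51 and between 0.84 and 0.95 for Lss. Without PBS tumor 4, 11 passed, without PBS tumor 2, 5 passed, and without any other single tumor 0 passed. Leaving out both PIIO-1 tumor 5 and PBS tumor 4 gave 0 calls, with r of Insig1 with Cyp51 at 0.93 and r of Insig1 with Lss at 0.95. Far fewer pairings remain there, and the smallest possible p is so large that hardly any pair could pass after adjustment. The 0 calls therefore do not show a weaker co-variation. The points share a size factor per library and the make-up of cells in each tumor, and the part of either was not tested.

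**Figure D5:**
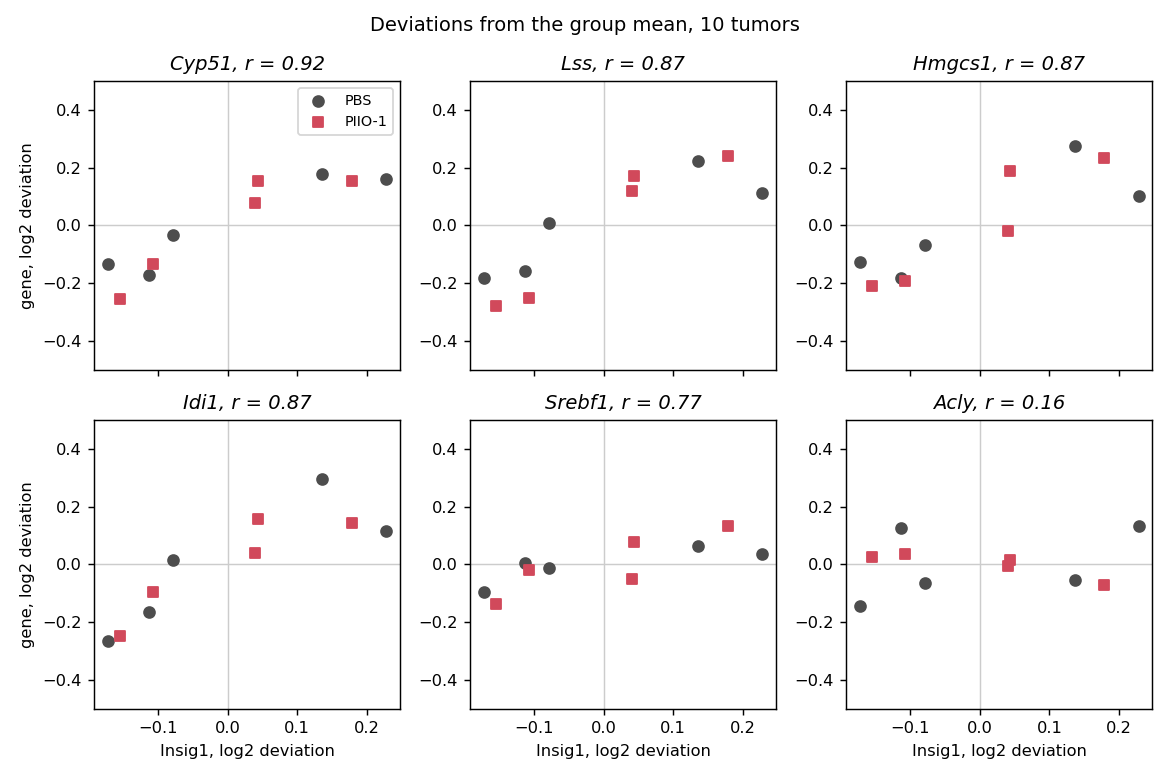
Deviation of 6 genes from their group mean (vertical axis, log2) against that of Insig1 (horizontal axis, log2) in 5 PBS tumors (grey circles) and 5 PIIO-1 tumors (red squares). Cyp51, Lss, Hmgcs1 and Idi1 rise with Insig1 in both groups, and Srebf1 does so over a narrower range. Acly shows r = 0.16 over both groups, 0.45 in PBS and -0.88 in PIIO-1 tumors.

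Of the 32 pairs of Dbi with the remaining genes, 0 passed, and 1 had an unadjusted p under 0.05. That pair was Acly, with a negative sign (r = -0.57, rho = -0.54, exact permutation p = 0.0342 for r and 0.1 for rho, adjusted p = 0.139 and 0.317, and r = -0.56 without PIIO-1 tumors 3 and 5). After it came Ebp (r = 0.57, rho = 0.59, exact permutation p = 0.0862 for r and 0.0691 for rho, adjusted p = 0.28 and 0.264), Nsdhl (r = 0.53, rho = 0.41, exact permutation p = 0.147 for r and 0.29 for rho, adjusted p = 0.401 and 0.651), Scap (r = 0.49, rho = 0.32, exact permutation p = 0.243 for r and 0.429 for rho, adjusted p = 0.563 and 0.809) and Fads1 (r = -0.40, rho = -0.30, exact permutation p = 0.271 for r and 0.42 for rho, adjusted p = 0.606 and 0.809). Without PIIO-1 tumors 3 and 5, r for these 4 was 0.35, 0.37, 0.26 and -0.23. Insig1 and Dbi themselves gave r = 0.26, rho = 0.091, exact permutation p = 0.458 for r and 0.81 for rho, adjusted p = 0.754 and 1, and r = 0.40 without PBS tumors 1 and 5. Among the 19 sterol enzyme genes, the median r over 171 pairs was 0.36, and among the 8 fatty acid genes it was 0.13 over 28 pairs, both as descriptions.

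Other genes of lipid handling, taken from lists drawn up from textbook knowledge, are given beside these values. Of 25 further genes of the SREBP system and its neighbours, 15 of 23 tested genes were positive, with a median difference of 0.040, and 0 passed over all genes. At an unadjusted p under 0.05 by limma, 2 of the 23 were higher and 1 lower, where 2.86% of all genes were higher and 2.77% lower. Their median was between 0.019 (leaving out PIIO-1 tumor 1) and 0.057 (leaving out PBS tumor 5). Rnf139, a sterol-regulated ubiquitin ligase of the endoplasmic reticulum whose exons overlap those of Tatdn1, differed by -0.14 (SE 0.050). For sterol export and the oxysterol receptors, 6 of 14 tested genes were positive, with a median difference of -0.057. The sign of this median turned with 1 tumor, lying between -0.14 (leaving out PBS tumor 2) and 0.063 (leaving out PIIO-1 tumor 1). Lpcat3, a phospholipid remodelling enzyme that overlaps Emg1, differed by 0.14 (SE 0.061) and Nr1h3, which encodes the oxysterol receptor LXR-alpha, by -0.25 (SE 0.15), or by -0.16 without PBS tumor 1.

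Among fatty acid oxidation genes, 4 of 11 tested genes were positive, with a median difference of -0.031. The median difference of fatty acid oxidation genes was between -0.058 (leaving out PBS tumor 5) and -0.0024 (leaving out PIIO-1 tumor 5), and 0.0062 with PIIO-1 tumor 5 and PBS tumor 4 both left out. Acadm, a medium-chain dehydrogenase, differed by 0.11 (SE 0.044) and Ppargc1a, a coactivator of oxidative genes, by -0.54 (SE 0.24) at a mean of only 25.0 normalized counts in PBS tumors. Among relatives of Dbi with an acyl-CoA binding domain, 4 of 5 tested genes were positive, with a median difference of 0.018, whose sign turned with 1 tumor, lying between -0.0076 (leaving out PIIO-1 tumor 1) and 0.047 (leaving out PIIO-1 tumor 2). Acbd5 and Acbd3 differed by 0.084 (SE 0.050) and 0.062 (SE 0.039), and Acbd5 by 0.055 without PIIO-1 tumor 2. None of these lists had a member that passed over all genes by limma, edgeR or DESeq2.

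Markers of other tissues and states were read beside these values. The defining adipocyte genes Plin1 and Cidec reached at most 3.27 and 7.26 normalized counts, and the summed level of the 10 adipocyte markers analysed was 787 to 1069.7 with PBS and 839.6 to 1079 with PIIO-1. Lipe, Fabp4 and Pparg made up most of that sum. Of 7 sebaceous gland markers, Soat1 and Far2, which other cells also express, held nearly all of the sum (3230.1 to 4377 with PBS and 3804 to 4677 with PIIO-1), and Scd3 and Elovl3 reached at most 10.9 and 4.54. Keratinocyte markers summed to 624 to 1309 with PBS and 868 to 1515 with PIIO-1. Most of that sum was Krt14 (602 to 1209), while Krt1, Krt10, Lor, Trp63 and Dsg3 had means below 10. The median keratinocyte difference, 0.30 over 4 tested genes, lay between -0.041 (leaving out PBS tumor 4) and 0.72 (leaving out PIIO-1 tumor 2). Macrophage markers summed to 41369 to 66666 with PBS and 33042 to 61301 with PIIO-1. T cell markers summed to 2331 to 4725 with PBS and 1834 to 5038 with PIIO-1. PIIO-1 tumor 1 held the lowest sum of both lists. The highest T cell sum was in PIIO-1 tumor 5 and the highest macrophage sum in PBS tumor 5. Red blood cell transcripts summed to 5563 to 12904 with PBS and 8458 to 58768 with PIIO-1, with a median difference of 1.41 over 6 genes (0.93 without PIIO-1 tumor 5 and PBS tumor 4) and the highest sum in PIIO-1 tumor 5. Their part in the sterol values was not tested.

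Among cell cycle genes, 4 of 10 tested genes were positive, with a median difference of -0.034. The sign of this median also turned with 1 tumor, lying between -0.064 (leaving out PIIO-1 tumor 1) and 0.019 (leaving out PIIO-1 tumor 4). Mcm5 and Mcm2, subunits of the replicative helicase, differed by -0.10 (SE 0.059) and -0.092 (SE 0.069). Without PBS tumor 4 the difference of Mcm5 was -0.066 and the difference of Mcm2 -0.033. Among genes of endoplasmic reticulum stress, 8 of 10 tested genes were positive, with a median difference of 0.15, or 0.083 with PIIO-1 tumor 5 and PBS tumor 4 both left out. Dnajb9, a chaperone of that compartment, differed by 0.33 (SE 0.13) and the stress factor gene Atf4 by 0.17 (SE 0.075). Without PIIO-1 tumor 5, the highest for Dnajb9, the difference of Dnajb9 was 0.21, and with both tumors left out the difference of Atf4 was 0.092. The summed level of the 10 stress genes was 62549.9 to 72054 with PBS and 65363 to 84109.5 with PIIO-1, with PIIO-1 tumors 1, 3, 4 and 5 above every PBS tumor, and its part in the sterol values was not tested.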

How the data were processed

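Deposited values were gene counts that the authors had normalized with DESeq2, a signal that is never negative, in 1 column per tumor. The submitters' processing notes name HISAT2, featureCounts, DESeq2 and GRCm38. No version, annotation or strand setting is named there. The treatment label set the group, and the title the replicate number. The labels do not say that tumors came from separate mice, so p-values measure only the spread between these samples. Each column was divided by its step of 1 read (0.817 to 1.56 normalized counts). Every value then came out whole within 0.001 read. The whole reads gave library totals, levels per length and the inputs of edgeR and DESeq2. Exon lengths and positions came from the GENCODE annotation of GRCm38.

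A limma model (3.58.1, R 4.3.3) with a mean-variance trend was fitted to log2(value + 1) of 16767 genes whose mean reached 10. It was two-sided, with Benjamini-Hochberg adjustment over all genes and a threshold of 0.05; log values understate changes of low genes. Members, lists and tests were chosen with earlier results of these data known. Co-variation p-values came from all 14400 pairings that keep tumors inside their group. Genes given in every tumor were Insig1, Dbi, the gene of smallest p in each direction per role group of 5 or more, and genes whose groups do not overlap; of other lists, the 2 of smallest p (1 such gene is not reported here); of co-variation, the 5 of smallest p with Insig1 and with Dbi. Per-tumor values of Lss, Hmgcs1 and Idi1 were added for the co-variation, after their values were seen. Tried as alternatives were edgeR 4.0.16, DESeq2 1.42.0, scaling by TMM or by upper quartiles, pseudocounts of 0.5 and 5, no low-count filter or one at 50, array weights, a fit without the trend, the replicate block and each tumor left out. Both the fit and the pairing test were tested on simulated data.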

Additional observations from a re-analysis of the deposited data

Results flagged for a closer look

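Fdft1, the squalene synthase gene, stood at 1660.0 normalized counts in PBS tumor 2, far above the other 4 PBS tumors, of which the highest had 1353 and the lowest 1298. The gap is 0.849 of the group's range. Mcm2, a replication helicase gene, stood at 5015 normalized counts in PBS tumor 4, while the next highest PBS tumor had 4272. Its gap is 0.719 of the range. These 2 values were the only ones among 92 groups of 5 tumors whose gap exceeded 0.71, a limit that chance passes in about 1 of 20 groups.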

How the results depend on the processing

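Over 22 alternatives (21 for Fads2, which a minimum mean of 50 drops), 28 of the 34 genes kept the sign of their difference in every one. The 6 others were Insig2, Dhcr7, Fasn, Scd1, Acaca and Fads1, all with differences near 0, and no gene moved by a standard deviation between tumors. DESeq2 called 3 genes where limma called 0, and all other settings called 0. Leaving out 1 tumor gave between 27 and 32 positive genes, a median between 0.15 and 0.21, and 11 to 16 genes at an unadjusted p under 0.05. Deviations of same-numbered tumors showed no strong correlation (from -0.206 to 0.0954). Only PBS tumor 3 had its highest correlation with the PIIO-1 tumor of its own number. These values cannot settle whether the numbers pair tumors. The fit with the replicate block called 0 genes, kept 29 positive and had 12 at an unadjusted p under 0.05. In the co-variation with Insig1 and Dbi, 18 and 1 pairs passed with the replicate block, and 15 and 3 without subtracting group means. With the block, deviations of same-numbered tumors mirror each other while the pairings move the groups separately, so these p-values are too small. Without the subtraction, the group difference that chose the list enters r. Neither count bears on co-variation inside the groups. With Insig1 0 passed without PIIO-1 tumor 5 and PBS tumor 4, and 0 to 11 with 1 tumor left out. With both tumors out fewer pairings remain and the smallest possible p is larger, so that count cannot be compared with the others. Without the subtraction, r of Dbi with Scap was -0.00974 and r of Dbi with Acly 0.28. With 1 tumor left out, r of Dbi with Scap ran from -0.044 to 0.64, the lowest without PIIO-1 tumor 4. The cause of the changes with single tumors was not tested. Fdps, Fads1 and Fads2 are limited by low counts.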
